A study of Mus musculus with 24 samples.

Results

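The comparison described here set mouse CD4 T cells that lacked the transcription factors BATF and BATF3 after 4 days of culture with 10 ng/ml of anti-CD3e against the same kind of cells after 2 days. The arrays were chosen by sample title, 3 of the double knockout (DKO, labelled Batf1/3DKO) at 10 ng/ml and 3 of the double knockout at day 2, which makes 6 of the 24 arrays of the study. The study profiled naive CD4 T cells of 129SvEv mice and of DKO mice on gene arrays before and during culture under TH2 conditions, to ask how graded T cell receptor signals are read by BATF and IRF4. DKO day 4 cells with 2.2 ng/ml and wild-type (WT) cells of the 129SvEv strain at day 2 and at day 4 with 10 ng/ml, 3 arrays each, served as points of reference. In all these groups the receptor was triggered with soluble anti-CD3e, and anti-CD28 was supplied through an anti-hamster IgG coat on the plate. No concentration of anti-CD3e is attached to the day 2 label, so time and dose cannot be told apart in this comparison. They give 129SvEv as the strain and TH2 culture as the cell type, and they are silent on what a replicate is, a mouse, a culture or a repeat of the assay. The p-values therefore reflect how far these arrays scatter, and that scatter may be technical.

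Naive CD4 T cells that receive an antigen signal and costimulation leave quiescence, take up nutrients, divide, and acquire the cytokine programme that the surrounding cytokines favour. Under TH2 conditions that programme includes Il4, Il5, Il13 and Il10. BATF and BATF3 are basic leucine zipper proteins that pair with JUN proteins and bind DNA jointly with IRF4 at composite elements, and the abundance of IRF4 follows the strength of the receptor signal. Activated T cells also draw on metabolic regulators such as HIF, which senses oxygen and drives glycolytic genes, SREBP, which drives lipid synthesis, and ATF4, which drives amino acid supply.

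Levels are RMA intensities, the linear scale of the deposited table, and the median over all probe sets, an intensity of 30.2, serves as a guide to background. A mean is the arithmetic mean of a group ± its SD over 3 arrays. A log2 change is given ± its standard error from limma, a fold with its 95% confidence interval (CI), and a gene is called when its adjusted p is under 0.05. The DKO day 2 arrays correlated with each other at 0.986 to 0.989 and the DKO 10 ng/ml arrays at 0.991 to 0.992. Of 12 measured T cell identity markers limma called 0, and their group means in these arrays lay between 136.94 and 3101.4. Of 51 measured markers of other cell types, 3 rose and 1 fell, where 3.43% of all genes rose and 1.75% fell. Those that rose were H2-Ab1, the MHC class II chaperone Cd74 (means 97.1 ± 40.5 and 185 ± 8.07, adjusted p = 0.00648) and the B cell receptor component Cd79b (38.8 ± 6.45 and 88.8 ± 27.9, adjusted p = 0.000236). The Cd74 call was lost without DKO day 2 replicate 2, at an adjusted p of 0.0595. The marker that fell, Siglech of plasmacytoid dendritic cells, was under the guide in both groups (means 17.5 ± 1.13 and 13.3 ± 1.57, adjusted p = 0.0411). Its call was lost when any array of day 2 or replicate 1 or 3 at 10 ng/ml was left out, with only the compared groups fitted, and after cyclic loess or quantile normalization, at adjusted p-values of 0.0599 to 0.222. The summed intensity of 10 dendritic and antigen-presenting cell markers ran from 233.86 to 316.21 at day 2 and from 520.02 to 592.18 at 10 ng/ml. For 8 B cell markers it ran from 122.22 to 131.12 and from 158.35 to 196.96. The called risers were H2-Ab1 and Cd74 in the first list and Cd79b in the second. Median log2 changes of these lists were -0.037 and -0.042, so the sums do not stand for their typical member. Of the same lists H2-Aa, at 17.9 ± 0.685 and 17.5 ± 0.5, and Cd79a, at 11.5 ± 3.26 and 11.4 ± 0.968, stayed under the background guide in both groups. Both were picked after their values were seen. The part of other cell types in these sums was not tested. In bulk samples, fewer cells of a type and less RNA per cell cannot be told apart.

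The targeted genes were read first. Batf, which dimerises with JUN proteins, measured 28.98, 38.4 and 30.1 on the 3 DKO day 2 arrays and 43.02, 44.4 and 52.1 at 10 ng/ml, against WT means of 722 ± 137 and 1595 ± 99.8. The DKO values lay near background in both groups, and the difference between them missed the threshold (log2 change 0.52 ± 0.16, adjusted p = 0.0503). Batf3 measured 25.5, 22.5 and 31.9 and then 33.3, 24.7 and 31.5, with no call (adjusted p = 0.755), while its WT mean went from 35.8 ± 7.33 to 146 ± 32.8. Which part of either transcript the probes cover is not given in the sources used here. Irf4, the partner factor, was not called between day 2 and 10 ng/ml (means 707 ± 84.8 and 896 ± 68.4, log2 change 0.35 ± 0.21, adjusted p = 0.464). At day 4 with 2.2 ng/ml its mean was 350.2 ± 68.7, and it was 2.59-fold (95% CI 1.903 to 3.51) higher at 10 than at 2.2 ng/ml (adjusted p = 0.000105). That dose comparison uses the same 10 ng/ml arrays.

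Of 19938 genes, 684 (3.43%) were higher at 10 ng/ml than at day 2 in DKO cells and 349 (1.75%) were lower, with 216 (1.08%) higher and 41 (0.206%) lower by at least 2-fold. For 22.6% of all genes the 3 arrays of each group did not overlap. The median log2 change over all genes was -0.03. Without DKO day 2 replicate 3 the higher calls numbered 428, without DKO 10 ng/ml replicate 2 they numbered 455, and without replicate 3 of that group 445. The lower calls numbered 206 without DKO day 2 replicate 2, 196 without its replicate 3, 218 without DKO 10 ng/ml replicate 1 and 138 without its replicate 3. Over the same interval WT cells had 2056 (10.3%) higher and 2570 (12.9%) lower calls. The WT arrays are not shared with the DKO comparison. Of the DKO rises, 395 also rose in WT, which is 57.7% of the DKO list and 19.2% of the WT list, and 24 fell there. Of the DKO falls, 277 also fell in WT, which is 79.4% of the DKO list and 10.8% of the WT list, and 8 rose there.

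The milk protein gene Csn2, which encodes beta-casein, and Scd1, which encodes a desaturase that makes monounsaturated fatty acids, rose most. Csn2 measured 18.8, 20.2 and 22.6 at day 2 and 685, 1235 and 1356 at 10 ng/ml. Every 10 ng/ml array lay far above every day 2 array, which were below the background guide, and the rise was 51.2-fold (95% CI 33.00 to 79.5) with an adjusted p of 3.3e-11. WT means were 15.4 ± 0.424 and 15.1 ± 1.84, under background at both times. At 2.2 ng/ml the DKO arrays gave 23.3, 82.5 and 78.4, between the other DKO groups. Another casein gene outside the naming rule, Csn1s2a, went from a mean of 6.96 ± 1.45 to 23.7 ± 10.3, so both its levels were under the guide although it was called (log2 change 1.68 ± 0.22, adjusted p = 2.49e-05). The 250 bases before the RefSeq start of Csn2 are shown because it had the largest rise (GRCm38.p6, chr5:87699426-87699675, minus strand). Capitals mark the single match to TTCNNNGAA, the spaced palindrome that STAT factors recognise, read on both strands; 6.55% of the 19177 windows of this length before starts of measured genes hold such a match.
Csn2: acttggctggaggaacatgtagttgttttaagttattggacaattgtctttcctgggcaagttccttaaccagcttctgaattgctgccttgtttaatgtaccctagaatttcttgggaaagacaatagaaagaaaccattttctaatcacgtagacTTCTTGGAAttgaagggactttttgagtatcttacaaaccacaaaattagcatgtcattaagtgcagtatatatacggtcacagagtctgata

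Scd1 measured 40.2, 15.03 and 15.6 on the day 2 arrays and 936, 1305 and 989 at 10 ng/ml. Replicate 1 stood above the other day 2 arrays, and the groups did not overlap (rise of 50.4-fold, 95% CI 27.7 to 91.6, adjusted p = 4.58e-09). At 2.2 ng/ml Scd1 gave 10.3, 9.08 and 9.04, under background on all 3 arrays. Nrn1, which encodes the membrane-anchored protein neuritin, measured 104, 75.6 and 39.4 and then 1079, 1096 and 1036. Its day 2 arrays were spread and its 10 ng/ml arrays were nearly equal, with a rise of 15.8-fold (95% CI 9.68 to 25.9) and an adjusted p of 5.47e-08. Anxa2, a calcium-dependent membrane-binding protein, went from 17.9, 20.5 and 20.04 to 229, 201 and 188, from below the background guide on all day 2 arrays to well above it (rise of 10.6-fold, 95% CI 7.52 to 14.8, adjusted p = 1.61e-09). Pdk4, a kinase that inhibits pyruvate dehydrogenase, measured 13.2, 11.8 and 11.7 and then 140.4, 177 and 50.5. Replicate 3 was the lowest of the 10 ng/ml arrays and still lay above every day 2 array (rise of 8.85-fold, 95% CI 5.83 to 13.4, adjusted p = 1.47e-07).

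Tnfsf10, Ccl5 and H2-Ab1, also among the 15 largest rises without overlap, act at the cell surface or outside the cell. Tnfsf10, the death ligand TRAIL, measured 48.5, 16.8 and 18.7 at day 2 and 218, 174 and 144 at 10 ng/ml, with day 2 replicate 1 above the rest of its group and no overlap (rise of 7.11-fold, 95% CI 4.64 to 10.9, adjusted p = 1.04e-06). Ccl5, a chemokine that attracts T cells and monocytes, went from 33.98, 42.9 and 30.4 to 204, 237 and 254, also without overlap (6.52-fold, 95% CI 4.44 to 9.58, adjusted p = 3.79e-07). H2-Ab1, the beta chain of an MHC class II molecule, went from 36.99, 28.3 and 31.8 to 203, 264 and 213 (7.004-fold, 95% CI 4.84 to 10.1, adjusted p = 1.3e-07). Its alpha chain partner H2-Aa stayed under background on these arrays, as given above, and the part of antigen-presenting cells in the H2-Ab1 value was not tested. Ier3, an early response gene linked to cell survival, rose 8.63-fold (95% CI 5.32 to 13.97), and Serpinb6b, a serine protease inhibitor of the serpin family, rose 5.605-fold (95% CI 4.01 to 7.83). Their adjusted p-values were 1.55e-06 and 1.79e-07.

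**Figure D1:**
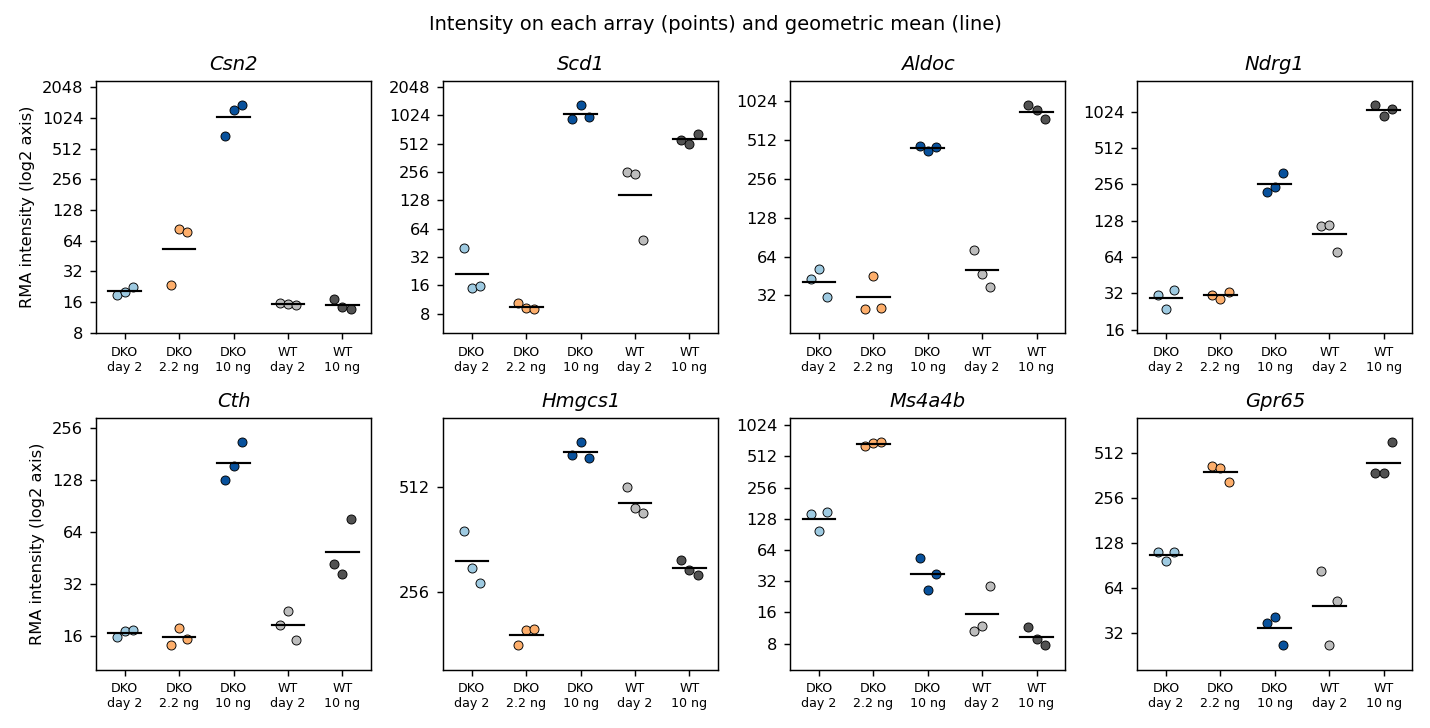
Intensity on each array (points, log2 axis) and geometric mean (line) of 8 genes in DKO cells at day 2, at day 4 with 2.2 ng/ml and at day 4 with 10 ng/ml, and in WT cells at day 2 and at day 4 with 10 ng/ml, 3 arrays each. Csn2 is high only in DKO cells at 10 ng/ml among the groups drawn, while Ms4a4b and Gpr65 in DKO cells are highest at 2.2 ng/ml and lowest at 10 ng/ml.

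Targets of HIF, the oxygen-sensing transcription factor, rose as a list. Of 17 measured hypoxia targets 12 rose and 0 fell, against 3.43% of all genes that rose, and the list's median log2 change was 1.30. Ndrg1, a stress-induced gene, measured 31.3, 23.9 and 34.02 at day 2 and 221, 242 and 317 at 10 ng/ml, with every 10 ng/ml array above every day 2 array (rise of 8.73-fold, 95% CI 6.69 to 11.4, adjusted p = 1.01e-10). Bnip3, a receptor for mitochondrial autophagy, went from 193, 219 and 129.7 to 936, 1033 and 1116 (5.82-fold, 95% CI 3.99 to 8.49, adjusted p = 8.2e-07). Ero1a, which oxidises protein thiols in the endoplasmic reticulum, rose from 326, 273 and 254 to 1058, 1566 and 1732 (5.03-fold, 95% CI 3.81 to 6.64, adjusted p = 2.94e-08). Egln3, a prolyl hydroxylase that marks HIF for degradation, rose from 121, 146 and 159 to 511, 498 and 824 (4.21-fold, 95% CI 3.07 to 5.77, adjusted p = 1.18e-06). In none of these 4 genes did the groups overlap. The 5 list members not called were Adm, Car9, P4ha2, Pdk1 and Higd1a, named here after their values were seen. In WT cells 14 of the 17 rose over the same interval (median 1.31), where 10.3% of all genes rose.

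The windows before the starts of Bnip3 and Egln3 are shown as examples of called hypoxia targets with the core ACGTG that HIF recognises (250 bases each, RefSeq starts in GRCm38.p6, chr7:138909507-138909756, minus strand and chr12:54203875-54204124, minus strand). Capitals mark the matches, searched on both strands, and a match may overlap the E-box CACGTG, as it does in Bnip3.
Bnip3: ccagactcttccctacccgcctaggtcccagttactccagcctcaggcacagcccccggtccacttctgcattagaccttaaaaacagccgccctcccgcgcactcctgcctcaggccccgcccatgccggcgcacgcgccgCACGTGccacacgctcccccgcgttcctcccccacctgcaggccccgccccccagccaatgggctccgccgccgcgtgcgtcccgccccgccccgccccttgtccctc
Egln3: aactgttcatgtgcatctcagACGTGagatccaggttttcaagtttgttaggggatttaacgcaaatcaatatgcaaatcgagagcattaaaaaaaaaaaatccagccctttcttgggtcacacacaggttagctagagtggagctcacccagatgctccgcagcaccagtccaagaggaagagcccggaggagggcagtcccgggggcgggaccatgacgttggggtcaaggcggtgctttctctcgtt
Of 15 list genes with a window, 11 held a match in at least 1 window, and of 10 called ones 9 did. Counted by window, 57.1% of the list's 21 windows and 18.4% of all 19177 windows held the core. These windows were picked because they matched, and a match is a description of letters only.

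Glycolysis genes moved the same way: 9 of 16 measured members rose and 0 fell, where 3.43% of all genes rose and 1.75% fell. Their median log2 change was 0.64. Aldoc, an aldolase isoform, measured 43.2, 51.5 and 30.9 and then 461, 417 and 453, with groups far apart (rise of 10.8-fold, 95% CI 6.91 to 16.9, adjusted p = 1.23e-07). Slc2a3, a glucose transporter, went from 106, 100.2 and 80.9 to 433, 493 and 690.0 (5.57-fold, 95% CI 3.95 to 7.84, adjusted p = 2.68e-07). The lactate exporter Slc16a3 rose from 114, 81.2 and 119.6 to 260.3, 258 and 301 (2.64-fold, 95% CI 1.97 to 3.52, adjusted p = 8.41e-05). Pfkp, a subunit of the committing enzyme phosphofructokinase, rose 2.405-fold (95% CI 1.97 to 2.93) with an adjusted p of 1.84e-06. In WT cells 4 of the 16 rose and 1 fell (median 0.37), where 10.3% of all genes rose and 12.9% fell. After cyclic loess 10 rose and 0 fell in WT, and after quantile normalization 7 and 0. The interaction was called for 1 of the 16, more positive in DKO, against 4.34% of all genes. At day 4 the 10 ng/ml arrays were higher than the 2.2 ng/ml arrays for 13 of 16 glycolysis genes and 12 of 17 hypoxia targets, against 4.47% of all genes that were higher in that dose comparison. The dose comparison shares the 10 ng/ml arrays with the one from day 2. Aldoc at 2.2 ng/ml gave 25.3, 45.6 and 25.7, and Slc2a3 gave 77.9, 77.1 and 82.5, so both overlapped with their day 2 values. Over the list, 10 of 16 glycolysis genes were lower at 2.2 ng/ml than at day 2 and 0 were higher (median log2 change -0.70), against 2.43% of all genes lower and 3.74% higher in that comparison, which shares the day 2 arrays. Of the 17 hypoxia targets 3 were lower there and 0 higher (median -0.02).

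**Figure D2:**
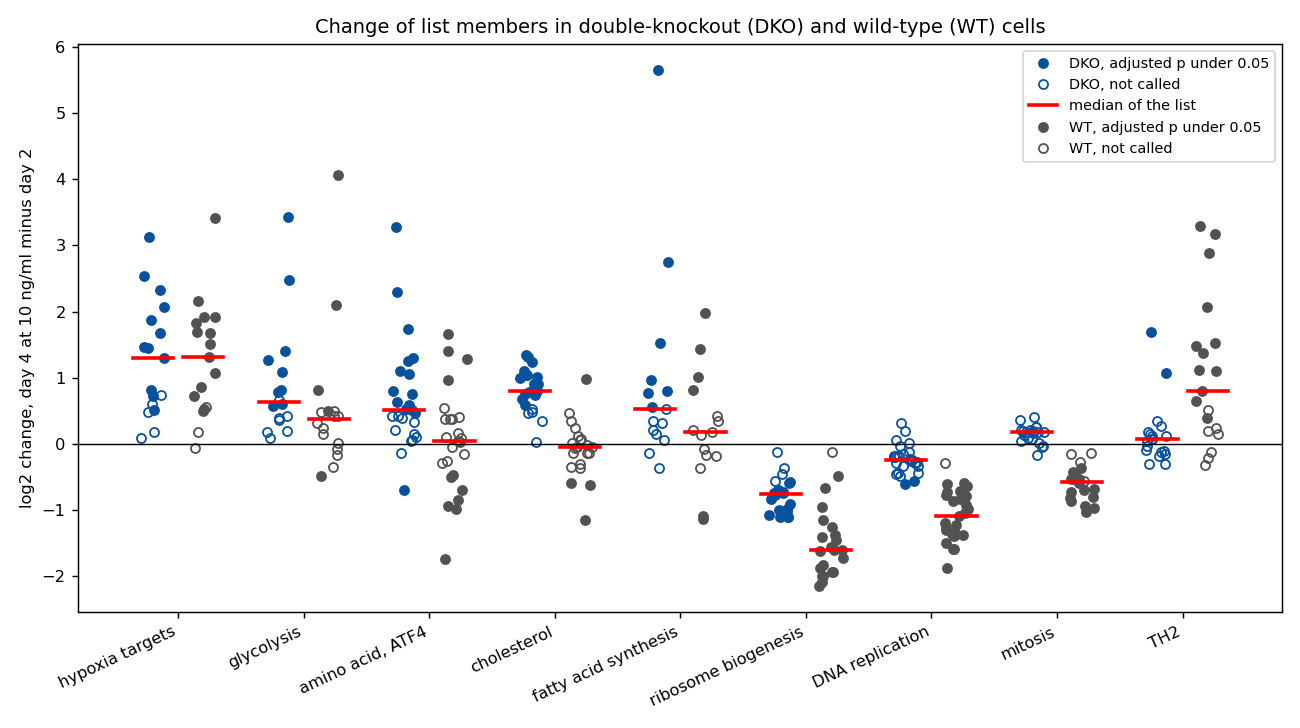
Log2 change from day 2 to day 4 at 10 ng/ml (vertical axis) of each measured member of 9 gene lists, in DKO cells (blue) and WT cells (grey). Filled points have an adjusted p under 0.05 in limma, open points do not, and red lines are list medians: 0.81 in DKO and -0.05 in WT for cholesterol genes, and -0.76 and -1.60 for ribosome biogenesis genes.

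Genes of cholesterol synthesis and its regulation formed the list with the most rises. Of 21 measured genes 16 rose and 0 fell in DKO cells, where 3.43% of all genes rose and 1.75% fell. The list's median log2 change was 0.81. Hmgcs1, which makes the precursor HMG-CoA, measured 382, 299.5 and 272 at day 2 and 634, 688 and 619 at 10 ng/ml. The groups did not overlap, and the rise was 2.06-fold (95% CI 1.699 to 2.49) with an adjusted p of 1.65e-05. Nsdhl, a sterol dehydrogenase, went from 235, 192 and 145 to 471, 522 and 410.4 (2.49-fold, 95% CI 1.895 to 3.27, adjusted p = 8.41e-05). Tm7sf2, a sterol reductase, went from 62.2, 58.7 and 52.9 to 137, 131 and 141 (2.35-fold, 95% CI 1.89 to 2.94, adjusted p = 1.25e-05). In neither did the groups overlap. The 5 members not called were Idi1, Sqle, Ebp and the cholesterol exporters Abca1 and Abcg1, named here after their values were seen. The window before the start of Hmgcs1 is shown because it was the single called list member with a match to the sterol regulatory element TCACNCCAC (GRCm38.p6, chr13:119690101-119690350, plus strand, capitals mark the match). Such a match was found in 1 of 18 windows of the list (5.56%) and in 1.01% of all windows, on either strand.
Hmgcs1: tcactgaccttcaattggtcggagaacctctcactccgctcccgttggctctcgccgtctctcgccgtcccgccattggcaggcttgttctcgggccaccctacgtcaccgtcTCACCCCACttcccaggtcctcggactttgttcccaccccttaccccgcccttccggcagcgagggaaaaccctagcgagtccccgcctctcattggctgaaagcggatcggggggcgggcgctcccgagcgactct

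In WT cells 1 of the 21 cholesterol genes rose and 3 fell (median -0.05), where 10.3% of all genes rose and 12.9% fell. The difference between genotypes, tested as an interaction in limma over arrays that the genotypes do not share, was called with a more positive change in DKO for 13 of the 21 genes, against 4.34% of all genes called in that direction. It was called for 10 of them after cyclic loess and for 10 after quantile normalization. Hmgcs1 fell in WT cells, from a mean of 463 ± 42.5 to 299 ± 14.8 (log2 change -0.63 ± 0.13, adjusted p = 0.000895), and the genotypes differed by 1.67 ± 0.19 on the log2 scale (adjusted p = 1.79e-06). For Nsdhl the WT means were 282 ± 40.6 and 278 ± 38.96, and the genotypes differed by 1.34 ± 0.27 (adjusted p = 0.00229). At day 4 in DKO cells, 18 of the 21 genes were higher with 10 than with 2.2 ng/ml, against 4.47% of all genes. Hmgcs1 at 2.2 ng/ml gave 179.5, 198 and 199.9, below all its day 2 arrays. Of the 21 genes 7 were lower at 2.2 ng/ml than at day 2 and 0 higher, against 2.43% and 3.74% of all genes.

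Fatty acid synthesis genes gave a mixed picture, led by the desaturases. Of 15 measured members 7 rose and 0 fell (median log2 change 0.53), where 3.43% of all genes rose and 1.75% fell. The risers numbered 4 without DKO day 2 replicate 3 or without DKO 10 ng/ml replicate 2. Fads2, which desaturates polyunsaturated fatty acids, measured 118, 36.1 and 105 at day 2 and 511, 527 and 504 at 10 ng/ml. Day 2 replicate 2 was the lowest of its group, and the groups did not overlap (rise of 6.72-fold, 95% CI 4.34 to 10.4, adjusted p = 2.32e-06). Scd2, a further stearoyl-CoA desaturase, rose from 863, 599.9 and 556 to 2076, 1957 and 1714 (2.89-fold, 95% CI 1.999 to 4.18, adjusted p = 0.000511). The elongase Elovl5 rose from 550.0, 494 and 516 to 1009.7, 998 and 1022 (1.94-fold, 95% CI 1.59 to 2.38, adjusted p = 9.65e-05). Fads2 was not called in WT cells (means 229.8 ± 88.4 and 250.4 ± 26.3, adjusted p = 0.739), and the genotypes differed by 2.54 ± 0.43 on the log2 scale (adjusted p = 0.00041). Scd1 rose in WT cells as well, from a mean of 183 ± 117 to 573 ± 72.2, and the difference between genotypes was 3.68 ± 0.59 (adjusted p = 0.000221).

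Genes of amino acid supply and of the ATF4 response rose in part. Of 25 measured members 13 rose and 1 fell (median log2 change 0.51), where 3.43% of all genes rose and 1.75% fell. Cth, which makes cysteine from cystathionine, measured 15.8, 17.02 and 17.3 at day 2 and 128, 154 and 212 at 10 ng/ml, from under the background guide on every day 2 array (rise of 9.65-fold, 95% CI 7.12 to 13.1, adjusted p = 4.63e-10). Chac1, which breaks down glutathione, measured 38.3, 40.1 and 36.7 and then 193, 180.3 and 195 (4.94-fold, 95% CI 3.801 to 6.41, adjusted p = 1.3e-08). Asns, asparagine synthetase, measured 163, 145 and 141 and then 420.3, 595 and 499.6 (3.35-fold, 95% CI 2.56 to 4.39, adjusted p = 1.48e-06). Slc1a4, a neutral amino acid transporter, went from under background at 19.7, 18.99 and 19.9 to 43.95, 58.3 and 39.4 (2.39-fold, 95% CI 1.904 to 2.99, adjusted p = 1.31e-05). In all 4 genes the groups did not overlap. The member that fell was Shmt1, the cytosolic serine hydroxymethyltransferase, named here after its value was seen (log2 change -0.69 ± 0.16, adjusted p = 0.00813).

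Windows before the starts of Chac1 and Asns are shown because these were the called members of the amino acid list that held TGATGNAA, the core of the composite site ATF4 binds (250 bases each, GRCm38.p6, chr2:119350992-119351241, plus strand and chr6:7693210-7693459, minus strand). Capitals mark the match, which reads on the opposite strand in Chac1.
Chac1: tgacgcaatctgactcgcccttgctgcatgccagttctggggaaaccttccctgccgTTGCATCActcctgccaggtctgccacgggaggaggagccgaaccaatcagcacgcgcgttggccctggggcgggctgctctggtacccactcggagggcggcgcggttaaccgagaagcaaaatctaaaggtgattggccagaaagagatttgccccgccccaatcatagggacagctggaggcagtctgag
Asns: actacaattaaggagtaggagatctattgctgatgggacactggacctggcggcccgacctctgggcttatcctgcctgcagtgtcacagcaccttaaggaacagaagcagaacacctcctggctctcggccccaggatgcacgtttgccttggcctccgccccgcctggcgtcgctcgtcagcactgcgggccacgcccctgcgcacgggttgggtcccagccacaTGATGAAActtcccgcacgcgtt
A match was found in 3 of the list's 26 windows (11.5%) and in 2.68% of all windows. In WT cells 4 of the 25 members rose and 7 fell, where 10.3% of all genes rose and 12.9% fell. The genotypes differed, with a more positive change in DKO, for 10 of the 25, against 4.34% of all genes. For Cth that difference was 1.87 ± 0.30 on the log2 scale (adjusted p = 0.00023) and for Asns 1.37 ± 0.27 (adjusted p = 0.00161). For Chac1 it was 1.02 ± 0.26 (adjusted p = 0.0144, or 0.0501 without WT day 2 replicate 1) and for Slc1a4 0.88 ± 0.22 (adjusted p = 0.0143, or 0.0584 without DKO 10 ng/ml replicate 2). At day 4, 17 of the 25 were higher with 10 than with 2.2 ng/ml in DKO cells, against 4.47% of all genes. From day 2 to 2.2 ng/ml 6 of the 25 fell and 0 rose, where 2.43% of all genes fell and 3.74% rose.

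Ribosome biogenesis genes fell as a group. Of 22 measured members 17 fell and 0 rose, against 1.75% of all genes that fell, with a median log2 change of -0.76. Utp20, a component of the small-subunit processome, measured 191, 171 and 216 at day 2 and 82.6, 97.7 and 88.04 at 10 ng/ml. No 10 ng/ml array reached the lowest day 2 array, and the fall was 2.15-fold (95% CI 1.802 to 2.56) with an adjusted p of 2.4e-06. Nop2, a nucleolar RNA methyltransferase, went from 161, 252 and 156 to 100.4, 98.2 and 78.1, with day 2 replicate 2 highest (lower by 2.02-fold, 95% CI 1.57 to 2.602, adjusted p = 0.000768). Rrp12, an export factor of ribosomal subunits, went from 106, 100.1 and 120.2 to 65.8, 62.3 and 46.7 (lower by 1.88-fold, 95% CI 1.55 to 2.29, adjusted p = 0.000108). The nucleolar proteins Noc3l and Gpatch4, among the 15 largest falls, fell 2.22-fold and 2.400-fold (adjusted p = 0.00167 and 1.99e-05). The window before the start of Nop2 is shown because it was the single list member with a match to the E-box CACGTG, which MYC recognises (GRCm38.p6, chr6:125131633-125131882, plus strand, capitals mark the match). The E-box stood in 1 of 19 windows of the list (5.26%) and in 6.99% of all windows.
Nop2: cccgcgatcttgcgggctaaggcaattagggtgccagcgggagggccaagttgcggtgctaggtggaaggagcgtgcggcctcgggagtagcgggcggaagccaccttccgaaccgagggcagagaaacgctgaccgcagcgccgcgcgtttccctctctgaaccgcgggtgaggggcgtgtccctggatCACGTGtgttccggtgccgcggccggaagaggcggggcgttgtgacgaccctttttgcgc

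In WT cells 21 of the 22 ribosome biogenesis genes fell (median -1.60), where 12.9% of all genes fell. Against 4.34% of all genes, the interaction test called the WT change the more negative for 9 of the 22. That number was 5 after cyclic loess and 6 after quantile normalization. It was also 5 without any one of WT day 2 replicates 1 and 3, WT 10 ng/ml replicates 1 and 2, DKO day 2 replicate 3 and DKO 10 ng/ml replicates 1 and 2. Utp20 went from a mean of 248 ± 20.1 to 61.9 ± 4.21 in WT, and the genotypes differed by 0.90 ± 0.17 on the log2 scale (adjusted p = 0.00161). Between 10 and 2.2 ng/ml at day 4 in DKO cells, 0 of the 22 were called in limma, where 4.47% of all genes were higher and 3.68% lower at 10 ng/ml. Utp20 at 2.2 ng/ml gave 96.1, 120.5 and 99.4, overlapping with its 10 ng/ml values.

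Calls among cell division genes are given beside the shares of all genes in DKO cells, where 3.43% rose and 1.75% fell. Of 27 measured DNA replication genes 2 fell and 0 rose, with a median log2 change of -0.24. They were Mcm2 and Mcm5, subunits of the replicative helicase, named here after their values were seen. Mcm2 had means of 522 ± 54.4 and 341 ± 33.1 (adjusted p = 0.00711, or 0.056 without DKO 10 ng/ml replicate 3). Mcm5 had means of 399.9 ± 21.3 and 271 ± 22.4 (adjusted p = 0.0238), and its call was lost without DKO day 2 replicate 2 or 3 or DKO 10 ng/ml replicate 1 or 3, at 0.0666 to 0.118. Of 20 mitosis genes 0 were called (median 0.18). In WT cells, where 12.9% of all genes fell, 26 of the 27 replication genes and 16 of the 20 mitosis genes fell. Their medians were -1.09 and -0.57. Against 4.34% of all genes, the interaction was called, with the WT change the more negative, for 17 replication genes and 11 mitosis genes. After cyclic loess these numbers were 9 and 5, and after quantile normalization 13 and 6. For replication the number was 10 without WT 10 ng/ml replicate 1 or 2 and 11 without DKO day 2 replicate 3 or DKO 10 ng/ml replicate 1 or 2. For mitosis it was 6 without WT 10 ng/ml replicate 2 or DKO 10 ng/ml replicate 1, and 7 without WT day 2 replicate 1 or 3, DKO day 2 replicate 3 or DKO 10 ng/ml replicate 2.

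With small RNA genes set aside, the 15 largest falls without overlap were smaller in size than the 15 largest rises. Ms4a4b, a membrane protein found on naive T cells, led them: it measured 142, 97.9 and 149 at day 2 and 53.7, 26.5 and 37.8 at 10 ng/ml, without overlap (lower by 3.38-fold, 95% CI 2.18 to 5.24, adjusted p = 0.000778). Gpr65, a proton-sensing receptor, measured 112, 97.7 and 111 and then 37.3, 40.9 and 26.6, again without overlap (lower by 3.097-fold, 95% CI 2.09 to 4.599, adjusted p = 0.000555). Arhgap20 measured 76.98, 42.7 and 44.96 and then 21.1, 18.3 and 21.7, the later values under the background guide (lower by 2.600-fold, 95% CI 1.93 to 3.500, adjusted p = 0.000137). These 3 genes had their highest DKO values at day 4 with 2.2 ng/ml, where Ms4a4b gave 644, 689 and 701, Gpr65 gave 420.2, 411 and 331 and Arhgap20 gave 195, 301 and 230.4. They were lower at 10 than at 2.2 ng/ml by 17.96-fold, 11.2-fold and 11.7-fold (adjusted p = 2.12e-09, 6.52e-09 and 1.19e-10).

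Other falls concerned transport, adhesion and metabolism. Slc19a1, the reduced folate carrier, measured 261, 183 and 513 at day 2 and 115, 87.2 and 116 at 10 ng/ml, with day 2 replicate 3 well above its group (lower by 2.77-fold, 95% CI 1.85 to 4.13, adjusted p = 0.00195). Cd226, an activating receptor that competes with the inhibitory receptor TIGIT for ligands, went from 119.6, 116 and 143 to 67.9, 62.5 and 39.6 (lower by 2.28-fold, 95% CI 1.61 to 3.23, adjusted p = 0.00389). Actn1, the actin cross-linker alpha-actinin, went from 231, 175 and 153 to 94.8, 80.5 and 71.4 (lower by 2.25-fold, 95% CI 1.82 to 2.77, adjusted p = 1.16e-05). None of these 3 overlapped between groups. Neto2, Gpr83 and Cltb, which encode an auxiliary protein of glutamate receptors, a G protein-coupled receptor and a clathrin light chain, fell 2.496-fold, 2.35-fold and 2.31-fold. Srm, spermidine synthase, fell 2.27-fold (adjusted p = 0.00703) and Eid3 2.39-fold (adjusted p = 0.00739). Both calls were lost without DKO 10 ng/ml replicate 3, at adjusted p-values of 0.056 and 0.0553.

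TH2 cytokine genes were not called in DKO cells. Of 19 measured TH2 genes 2 rose and 0 fell, against 3.43% of all genes that rose, and the list's median log2 change was 0.07. Il13 measured 39.7, 78.5 and 50.9 at day 2 and 44.6, 61.7 and 62.9 at 10 ng/ml, so the groups overlapped (log2 change 0.04 ± 0.34, adjusted p = 0.975). Il10, an anti-inflammatory cytokine, measured 8.99, 7.505 and 9.05 and then 8.57, 8.99 and 7.44, under background throughout (adjusted p = 0.975). Il5, the eosinophil growth factor, measured 9.42, 8.84 and 9.27 and then 8.42, 7.86 and 9.54, also under background (adjusted p = 0.907). Il4 and the TH2 factor Gata3, named here after their values were seen, had DKO means of 23.3 ± 3.23 and 21.3 ± 2.39 and of 748 ± 74.1 and 810.1 ± 83.8 (adjusted p = 0.921 and 0.748). Il24 had means of 12.5 ± 1.52 and 13.1 ± 1.597 (adjusted p = 0.953).

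The TH2 list's rising members were transcription factors rather than cytokines. Epas1, which encodes the hypoxia-inducible factor HIF-2 alpha, measured 61.9, 61.7 and 74.6 at day 2 and 254, 175 and 219 at 10 ng/ml, without overlap (rise of 3.24-fold, 95% CI 2.38 to 4.42, adjusted p = 1.62e-05). Nfil3, a basic leucine zipper repressor, went from 437, 312 and 459 to 823, 787 and 905, also without overlap (2.11-fold, 95% CI 1.597 to 2.78, adjusted p = 0.00111). In WT cells 12 of the 19 TH2 genes rose (median 0.81), where 10.3% of all genes rose. For 8 the genotypes differed, with a less positive change in DKO, against 3.25% of all genes in that direction. With genes dimmer than the median left out, that number was 5. Il10 had WT means of 58.7 ± 19.4 and 589.9 ± 267, and the genotypes differed by -3.33 ± 0.37 on the log2 scale (adjusted p = 1.18e-06). For Il13 the WT means were 276 ± 53.6 and 2108 ± 817 and the difference -2.85 ± 0.49 (adjusted p = 0.000426). For Il5 they were 9.67 ± 0.315 and 44.9 ± 26.6 and -2.16 ± 0.34 (adjusted p = 0.000153), and for Il24 141 ± 46.6 and 1249 ± 264 and -3.10 ± 0.50 (adjusted p = 0.00024).

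**Figure D3:**
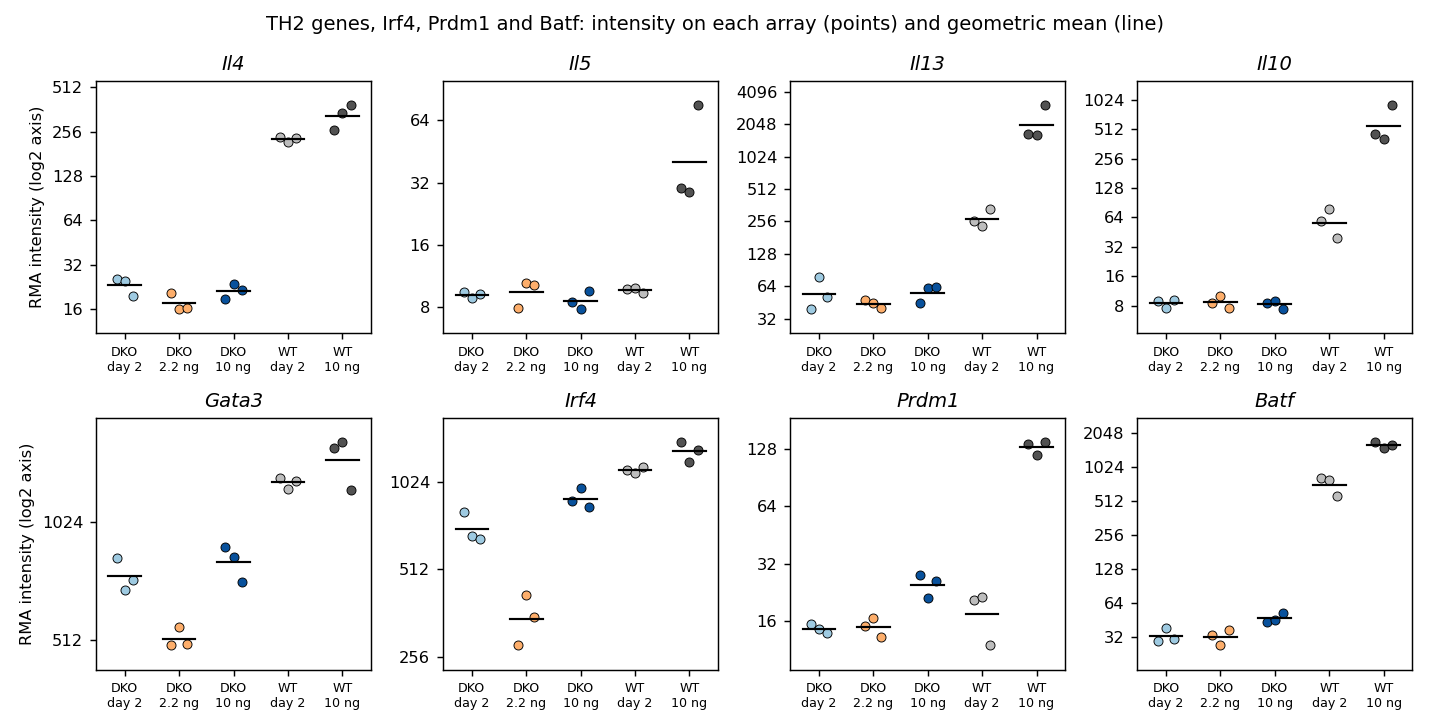
Intensity on each array (points, log2 axis) and geometric mean (line) of Il4, Il5, Il13, Il10, Gata3, Irf4, Prdm1 and Batf in DKO cells at day 2, at day 4 with 2.2 ng/ml and at day 4 with 10 ng/ml, and in WT cells at day 2 and at day 4 with 10 ng/ml, 3 arrays each. The DKO points of Il5, Il10 and Il13 overlap between day 2 and 10 ng/ml, while their WT points lie higher at 10 ng/ml than at day 2.

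Other secreted factors did rise, where 3.43% of all genes rose and 1.75% fell. Of 29 measured T cell cytokine and chemokine genes 8 rose and 1, lymphotoxin alpha (Lta, named after its value was seen, log2 change -1.06 ± 0.27, adjusted p = 0.0205), fell, with a median log2 change of 0.16. Csf1, a macrophage growth factor, measured 88.5, 54.02 and 117 at day 2 and 376, 261 and 242 at 10 ng/ml (rise of 3.49-fold, 95% CI 2.58 to 4.71, adjusted p = 4.59e-06). It stood at 256, 285 and 293 with 2.2 ng/ml, so both day 4 groups lay above day 2. In WT cells its means were 23.8 ± 2.54 and 33.8 ± 1.55, and the genotypes differed by 1.29 ± 0.30 on the log2 scale (adjusted p = 0.0071). Il21, a helper cytokine with WT means of 6.81 ± 1.300 and 373 ± 33.1, stayed under background in DKO cells at 8.54 ± 2.02 and 6.45 ± 1.25, and this was the interaction of smallest p among the genes named here (log2 difference -6.18 ± 0.28, adjusted p = 2.33e-13).

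Among surface receptors, Nrp1, a semaphorin receptor also found on regulatory T cells, measured 33.5, 30.00 and 32.9 at day 2 and 84.9, 111 and 87.6 at 10 ng/ml, without overlap (rise of 2.92-fold, 95% CI 2.23 to 3.83, adjusted p = 8.75e-06). In WT cells it fell, from 29.1 ± 5.08 to 15.6 ± 2.198 (adjusted p = 0.000813), both under the background guide, and the genotypes differed by 2.44 ± 0.27 on the log2 scale (adjusted p = 1.06e-06). Nrp1 was 1 of the 4 regulatory T cell genes that rose, out of 13 measured, and Gpr83 was the member that fell. Of all genes 3.43% rose and 1.75% fell. Entpd1, an ectonucleotidase also known as CD39, rose 2.76-fold (95% CI 1.99 to 3.84), and Lrrc32, which anchors latent TGF-beta, rose 2.900-fold (95% CI 2.11 to 3.99), with adjusted p-values of 0.000222 and 8.97e-05. Tnfrsf18, the costimulatory receptor GITR, was the remaining riser (log2 change 0.70 ± 0.16, adjusted p = 0.00741, or 0.0507 without DKO day 2 replicate 2). Tnfrsf4, the costimulatory receptor OX40, went from 658, 630.4 and 639.7 to 1158, 1416 and 1321 (2.01-fold, 95% CI 1.57 to 2.58, adjusted p = 0.000686). Il9r, the IL-9 receptor, rose 2.64-fold (95% CI 2.02 to 3.46) with an adjusted p of 3.15e-05, 1 of 2 cytokine receptor genes called out of 23, both higher. The other, Ifngr2 of the interferon-gamma receptor, had a log2 change of 0.56 ± 0.16 (adjusted p = 0.0339), and its call was lost without any one array other than DKO day 2 replicate 1, with only the compared groups fitted and after quantile normalization, at adjusted p-values of 0.0601 to 0.261.

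Of 23 effector transcription factors 4 rose and 2 fell, with a median log2 change of 0.03, against 3.43% of all genes that rose and 1.75% that fell. Bhlhe40, a basic helix-loop-helix repressor, measured 95.1, 104 and 81.1 at day 2 and 327, 403 and 408 at 10 ng/ml, and 32.9, 37.9 and 51.2 at 2.2 ng/ml. The 10 ng/ml arrays lay above and the 2.2 ng/ml arrays below the day 2 arrays, and the rise from day 2 was 4.07-fold (95% CI 2.82 to 5.86) with an adjusted p of 1.32e-05. Klf6, a zinc finger factor, rose from 51.1, 62.1 and 61.5 to 106, 123 and 93.1 (1.84-fold, 95% CI 1.52 to 2.24, adjusted p = 0.000191). In WT cells Klf6 fell from a mean of 284 ± 44.05 to 209 ± 15.6 (adjusted p = 0.0221), and the genotypes differed by 1.31 ± 0.19 (adjusted p = 7.06e-05). Ikzf3, the Ikaros family factor Aiolos, fell from 197, 135 and 180.2 to 107, 73.96 and 76.2 (lower by 1.996-fold, 95% CI 1.51 to 2.64, adjusted p = 0.00245), and stood at 417, 357 and 329 with 2.2 ng/ml. Eomes, a T-box factor, measured 77.6, 71.3 and 146 and then 62.1, 38.2 and 40.2, against 619, 670.3 and 509 with 2.2 ng/ml. Its fall from day 2 was 2.04-fold (95% CI 1.33 to 3.13) with an adjusted p of 0.0456. That call was lost with every probe set as a row (0.0529), another variance model (0.0518) and the compared groups alone (0.0713). Without DKO day 2 replicate 3 that p was 0.287, and without DKO 10 ng/ml replicate 2 or 3 it was 0.178 or 0.167. Prdm1, the repressor BLIMP-1, rose by 0.77 on the log2 scale (adjusted p = 0.0151), with DKO means of 14.6 ± 0.783 and 25.02 ± 3.46, both under background, and WT means of 17.99 ± 5.25 and 131 ± 10.8, with a difference between genotypes of -2.14 ± 0.27 (adjusted p = 7.17e-06).

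Negative feedback genes of receptor signalling rose for 7 of 25 measured members, and 0 fell (median log2 change 0.28). The shares of all genes, for this list and the AP-1 list below, were 3.43% higher and 1.75% lower. Rgs1, which shortens G protein signals, measured 61.3, 71.6 and 50.4 at day 2 and 222, 249 and 215 at 10 ng/ml, without overlap (rise of 3.77-fold, 95% CI 2.88 to 4.95, adjusted p = 3.59e-07). It stood at 202, 226 and 203 with 2.2 ng/ml, so the day 4 groups overlapped with each other. Tnfaip3, the NF-kappaB inhibitor A20, went from 115, 95.2 and 90.1 to 162, 188 and 218 (1.89-fold, 95% CI 1.47 to 2.43, adjusted p = 0.00186), and the DKO minus WT difference of change was -1.34 ± 0.25 on the log2 scale (adjusted p = 0.000944), with WT means of 84.5 ± 1.602 and 405 ± 38.8. The AP-1 subunit Jun, a partner of BATF, rose 1.89-fold (95% CI 1.42 to 2.51) with an adjusted p of 0.00648, 1 of 2 genes called, both higher, in a list of 19 AP-1, NFAT, EGR and NR4A genes. The other was Junb, with a log2 change of 0.66 ± 0.17 (adjusted p = 0.0247), and its call was lost without any one array other than DKO day 2 replicate 3 and with the compared groups alone, at 0.0503 to 0.139. Mt1, a metal-binding metallothionein, rose from 19.9, 21.1 and 29.6 to 87.3, 93.8 and 99.3 (4.03-fold, 95% CI 2.43 to 6.68, adjusted p = 0.00082). Its WT means were 85.8 ± 50.4 and 2298 ± 483, and the genotypes differed by -2.97 ± 0.50 (adjusted p = 0.000377).

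Several lists held at most 2 calls in DKO cells. Of 17 oxidative phosphorylation genes 0 were called (median log2 change -0.05), of 12 ribosomal protein genes 0 (median 0.10) and of 6 TH17 genes 0 (median -0.04). Among the same 19938 genes, limma gave an unadjusted p under 0.05 for 3315. Of 13 TH1 genes 1 rose and 1 fell, of 25 interferon-stimulated genes 2 rose, of 18 cytotoxic granule genes 1 rose and of 24 chemokine receptor and integrin genes 1 rose. Of 20 chaperone and unfolded protein response genes 1 rose (median -0.07). A share of 5.18% of all genes was called in either direction, so these small counts are not read as a lack of change.

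Over all genes, the change from day 2 to 10 ng/ml was called as different between the genotypes for 1513 (7.59%). It was more positive in DKO for 865, or 57.2% of these, and more negative for 648. After cyclic loess 42.9% of the calls were more positive in DKO, and after quantile normalization 46.3%, so the balance of directions turned with the scaling. Without WT 10 ng/ml replicate 2 the genes more positive in DKO numbered 573, and without DKO 10 ng/ml replicate 2 they numbered 551. In WT itself, rises made up 44.4% of the calls, 55.1% after cyclic loess and 47.4% after quantile normalization. Across the 19938 genes the changes in DKO and WT correlated at 0.457, as a description over genes, which are not independent. Gpr65 moved in opposite directions: it fell in DKO cells, as given above, and rose in WT from a mean of 53.6 ± 28.1 to 454 ± 136, so that DKO minus WT came to -4.82 ± 0.39 (adjusted p = 8.65e-09). Cd226 fell in both genotypes, and by more in WT, where its means were 95.7 ± 25.4 and 14.3 ± 2.11 (difference 1.53 ± 0.34, adjusted p = 0.00592).

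**Figure D4:**
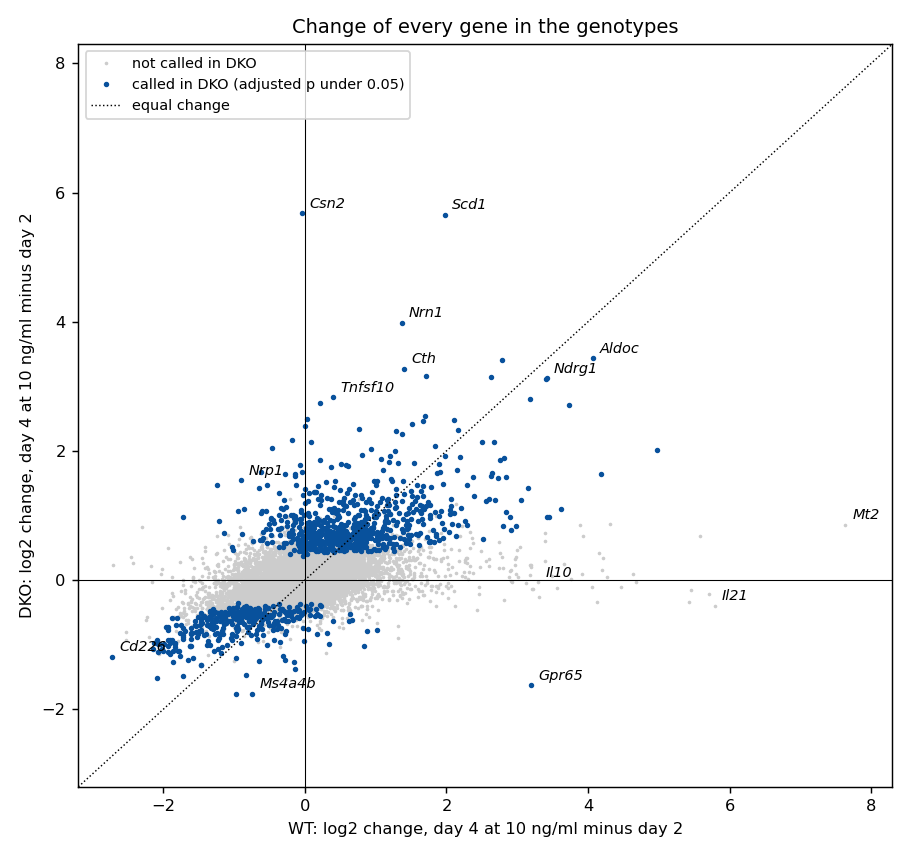
Log2 change from day 2 to day 4 at 10 ng/ml of each of 19938 genes in WT cells (horizontal axis) and DKO cells (vertical axis), with genes called in DKO by limma (adjusted p under 0.05) in blue and the dotted line at equal change. Csn2 lies at a WT change of -0.04 and a DKO change of 5.68, and Gpr65 at 3.19 and -1.63.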

How the data were processed

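RNA of 24 samples was hybridised to mouse gene arrays, 1 per sample. The deposited values are intensities on a linear scale, and the submitters' processing notes name RMA, which corrects background, normalizes across arrays and summarises probes. Its software version is not given in the sources used here. Array medians ran from 26.4 to 31.6. Here log2 was taken, and of 35556 probe sets the 21789 with 1 symbol in the platform annotation were kept (1621 had several, 12146 none). A gene is its probe set of highest mean, which left 19938 genes, 999 of them with several probe sets. Groups came from sample titles.

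limma 3.58.1 in R 4.3.3 fitted 8 group means over all 24 arrays (16 residual and 7.49 prior degrees of freedom), with Benjamini-Hochberg adjustment per comparison and a threshold of 0.05. The scripts were tested on simulated data with 50 planted changes of each size. At a log2 change of 0.5 they recovered 12, at 1 they recovered 45, and at 2 and at 3 all 50. Of 170 calls 13 fell on unchanged genes. A gene not called may therefore still have changed by about 0.5. Named genes were the targeted pair and Irf4, the 15 strongest rises and the 15 strongest falls among calls whose groups do not overlap (10 each for the interaction), and up to 4 members of smallest p per list; gene models, small RNAs and antigen receptor segments were skipped. Members that complete a small count, and others so marked, were named after their values were seen. Members and all 39 lists were chosen with earlier results of these data known. Alternatives were a filter on dim genes, other probe set rules, cyclic loess, quantile normalization, the replicate block, another variance model, the compared groups alone and each array left out. Some genes of the lists are not analysed here. Close relatives such as Mt1 and Mt2, Scd1 and Scd2 or the Ms4a family may share signal. Windows before gene starts are RefSeq sequence of GRCm38.p6, found for 15614 genes by symbol.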

Additional observations from a re-analysis of the deposited data

Results flagged for a closer look

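For 39 of the 82 genes given values in the text, the change from day 2 to 10 ng/ml differed between the genotypes in limma's interaction test (adjusted p under 0.05), 25 with a more positive and 14 with a more negative change in DKO cells. Among all genes 7.59% were called. The 82 were chosen largely by their values in these data, some by the interaction itself, so their share follows from that choice and is no result. The values below are DKO minus WT differences of the log2 change, and their causes were not tested. Among lipid genes they were 3.68 for Scd1, 2.54 for Fads2, 1.67 for Hmgcs1, 1.34 for Nsdhl, 1.002 for Tm7sf2 and 0.79 for Elovl5. The Elovl5 call was lost after cyclic loess, at an adjusted p of 0.0944. Among amino acid genes they were 1.87 for Cth, 1.37 for Asns, 1.05 for Shmt1, 1.02 for Chac1 and 0.88 for Slc1a4.

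The caseins gave 5.71 for Csn2 and 1.72 for Csn1s2a. Surface and secreted proteins gave 2.62 for Nrn1, 2.44 for Nrp1, 2.43 for Tnfsf10, 1.53 for Cd226 and 1.29 for Csf1, and the protease inhibitor Serpinb6b gave 2.45. Klf6 gave 1.31, Utp20 0.90, Mcm5 0.79 and Mcm2 0.77. The Mcm2 call was lost after cyclic loess (adjusted p = 0.0649) and the Mcm5 call without WT day 2 replicate 2 (0.0582) or DKO 10 ng/ml replicate 2 (0.0587). Cd79b gave 0.95 and Cd74 1.17. The Cd79b call was lost without WT day 2 replicate 1 or 3, WT 10 ng/ml replicate 2, DKO day 2 replicate 2 or DKO 10 ng/ml replicate 2, at adjusted p-values of 0.0535 to 0.0893. The Cd74 call was lost without WT day 2 replicate 2 (0.0715), WT 10 ng/ml replicate 2 (0.0558) or DKO day 2 replicate 2 (0.0692).

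More negative changes in DKO cells were found for the cytokines Il21 at -6.18, Il10 at -3.33, Il24 at -3.10, Il13 at -2.85 and Il5 at -2.16. Gpr65 stood at -4.82, Mt1 at -2.97, Prdm1 at -2.14 and the deleted gene Batf3 at -1.86. Ikzf3 and Tnfaip3 both stood at -1.34, Arhgap20 at -1.23 and Actn1 at -0.85. Siglech stood at -0.63, a call lost after quantile normalization and without WT day 2 replicate 3, DKO day 2 replicate 2 or DKO 10 ng/ml replicate 3, at adjusted p-values of 0.0505 to 0.0598.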

How the results depend on the processing

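Each array of the compared groups, 3 per group, was left out in turn. From day 2 to 10 ng/ml in DKO cells it gave 428 to 695 higher and 138 to 289 lower calls. In WT cells it gave 1667 to 1987 higher and 2094 to 2356 lower calls. The interaction gave 551 to 929 more positive and 509 to 704 more negative calls in DKO, the dose comparison 577 to 806 higher and 466 to 647 lower, and DKO at 2.2 ng/ml against day 2 gave 428 to 867 higher and 136 to 434 lower. Members called in DKO cells then numbered 11 to 12 for hypoxia, 7 to 8 for glycolysis, 11 to 16 for cholesterol, 4 to 7 for fatty acids, 9 to 11 for amino acids, 12 to 18 for ribosome biogenesis, 7 to 9 for secreted factors and 5 to 7 for feedback. In the interaction they numbered 9 to 14 for cholesterol, 9 to 12 for amino acids, 5 to 7 for fatty acids, 6 to 11 for mitosis, 10 to 18 for replication, 5 to 11 for ribosome biogenesis and 7 to 9 for TH2 genes. The list counts of the interaction were added after the data were seen. After cyclic loess the interaction's more positive calls numbered 560, with 5 mitosis, 9 replication and 5 ribosome biogenesis genes, and after quantile normalization 574, with 6 mitosis genes. Fitting the compared groups alone gave 17 mitosis genes, and leaving out dim genes gave 5 TH2 genes. Deviations of same-numbered DKO arrays of day 2 and 10 ng/ml correlated at -0.0281 to 0.0986, and those of differently numbered arrays at -0.115 to 0.0752. With 3 arrays per group these values cannot settle whether replicate numbers mark pairs, which the labels do not say. A replicate block gave 706 higher and 346 lower calls in that comparison, with Eomes no longer called (adjusted p = 0.0568). The cause of these shifts was not tested. None of the values for single genes changed sign while called. The balance of directions among all interaction calls turned after cyclic loess and after quantile normalization, as given in the report. Among all WT calls it turned after cyclic loess only. Genes near an intensity of 30.2 were measured close to background, where fold changes are understated.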

Other observations

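A pair of gene families were picked after their values were seen and are given as counts only. For comparison, 3.43% of all genes were higher and 1.75% lower in DKO cells, with a median log2 change of -0.03. In WT cells 10.3% of all genes were higher and 12.9% lower, with a median of -0.002. Of 51 measured small nucleolar RNA genes, which guide chemical changes of ribosomal RNA, 9 were lower and 1 was higher at 10 ng/ml than at day 2 in DKO cells, with a median log2 change of -0.49. The lower ones numbered 8 after cyclic loess and 10 after quantile normalization, 3 without DKO 10 ng/ml replicate 3, and 6 if replicate 2 or 3 of DKO day 2 was dropped. In WT cells 28 of the 51 were lower and 2 higher, with a median of -0.99. Of 30 histone genes, which package DNA, 5 were higher and 0 lower in DKO cells (median 0.13). The higher ones numbered 4 after quantile normalization, 3 without DKO day 2 replicate 2 or DKO 10 ng/ml replicate 1 or 2, 2 without DKO 10 ng/ml replicate 3 and 1 without DKO day 2 replicate 3. In WT cells 15 were lower and 1 higher (median -0.56). Members of both families have near-identical copies, so a probe set may carry signal of more than 1 gene.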
